A study of Mus musculus with 4 samples.

Results

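Cilium genes and the RFX transcription factors were followed across 4 one-colour Agilent mouse arrays, 2 of islet-like clusters grown from pancreatic cells and 2 of islets. The genes were taken by name: all array names beginning with Ift, Bbs, Rfx, Nphp or Dnah, the intraflagellar transport genes Wdr19 and Wdr35, and further named genes of the transport motors, the transition zone, the ciliary membrane and the axoneme. This gave 71 genes, measured by 114 probes, out of 34821 gene names and 55681 probes on the array. The rule itself uses names alone, although the genes were picked with earlier results of these data known.

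The primary cilium is a single antenna of microtubules that grows from the mother centriole of most resting cells and gathers receptors of Hedgehog and other signals. It is built by intraflagellar transport (IFT): kinesin-2 carries protein trains outward from the base, dynein-2 returns them, the BBSome moves membrane proteins with them, and the transition zone at the base decides what enters. Motile cilia add axonemal dyneins, and RFX transcription factors bind an inverted repeat called the X-box in promoters of cilium genes. In the islet, hormone-producing cells carry a primary cilium and depend on Rfx6 and Rfx3 for their formation and function.

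Both groups came from male Swiss albino mice of 10 to 12 weeks whose pancreata were pooled in groups of 2 to 4 animals and digested with collagenase. The clusters were formed from the fibroblast-like cells that attached to plastic and were passaged, and were collected at 10 days in serum-free medium with albumin and insulin-transferrin-selenium on low-adherence dishes, with 0.3 mM taurine from day 3 and 100 mM nicotinamide, 3 mM taurine and the incretin GLP-1 from day 7. The islets were flushed from the same kind of culture and purified. Whether they were used fresh, as the descriptions have it, or after 48 h of culture, as in the titles, is unsettled. The attached cells before induction were not among the samples, and whether each sample was a pool of its own is not stated. The p-values therefore reflect array-to-array spread, which could be purely technical.

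The cell types on the arrays differed widely. On the scale of signal divided by each array's 75th percentile, 11 endocrine markers summed to 2.79 and 2.33 in the clusters and to 197.3 and 34.5 in the islets, and 4 of them (Gcg, Iapp, Ppy and Slc2a2) were not well above background on either cluster array. The 10 acinar markers summed to 0.867 and 0.836 in the clusters, where 7 were not well above background, and to 4382 and 6737 in the islets. The 10 mesenchymal stromal markers ran the other way, at 1685 and 1530 in the clusters against 50.5 and 59.9 in the islets, where only Twist1 was not well above background. Duct markers summed to 590 to 634 in the clusters and 324 to 400 in the islets, but the cluster sums came almost wholly from Spp1. In log2 Spp1 was at 9.31 and 9.20 there, and the next highest duct marker, Sox9, at -0.26 and 0.46. By the test described below, 6 of the 8 duct markers were lower in the clusters, Spp1 alone was higher and 1 was not called. Macrophage markers summed to 24.2 to 25.9 in the clusters and 154 to 181 in the islets. Endothelial markers summed to 3.15 to 3.55 and 17.3 to 17.4, and 4 of 6 (Cdh5, Emcn, Robo4 and Tek) were not well above background in the clusters. The part of these mixtures in the results below was not tested, and in RNA of whole samples fewer cells of a type and less RNA per cell cannot be told apart. Between 59.7% and 63.6% of spots were well above background on each array. Arrays of a group correlated at r = 0.985 (clusters) and 0.989 (islets), and arrays of different groups at 0.796 to 0.81.

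Signals below are log2 of the processed intensity minus the array's own 75th percentile, and a fold change is the mean of the cluster arrays minus that of the islet arrays with the standard error (SE) of the limma fit. A gene was called when its limma p-value, adjusted by Benjamini and Hochberg's method over 24595 genes, was under 0.05. Of the 71 genes, 62 could be tested. The single probes of Ift20, a subunit of the IFT-B train, and Ift43, of the IFT-A train, were flagged as non-uniform on cluster array 1 and were dropped. The dyneins Dnahc3, Dnahc5, Dnahc9 and Dnahc11 and the factors Rfx6 and Rfx8 were not well above background on any array, and Dnahc10 was so on 1 array of each group.

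Genes of the primary cilium were more often called higher than lower in the clusters. Of the 62 genes tested, 25 were called higher in the clusters (40.3%, against 27.2% of all genes tested) and 14 lower (22.6%, against 30.7%). That made 39 called genes, 62.9% against 57.9% of all genes. Of the 62, 28 were called with a fitted difference of at least 2-fold, 20 upward and 8 downward, beside 38.8% of all genes tested. The 28 include Dnahc2, Dnahc12, Dnahc7b and Rfx2, undetected in 1 group, whose fitted sizes are not measured sizes. The counts of each role and list below stand beside the all-gene shares of 27.2% higher and 30.7% lower. The median fold change of the 62 was 0.41 against -0.15 for all genes, and its distance from the all-gene median was 0.56. With each array scaled by its median the split was 27 higher and 9 lower, and over all genes 7849 higher and 5952 lower in place of 6691 and 7561. With arrays scaled on commonly detected probes it was 24 and 17, and over all genes 6068 and 8981. The values of the groups did not overlap in 54 of the 62, where 83% of all genes tested had groups that did not overlap. Without the axonemal dyneins and the Rfx genes 43 tested genes remained, of which 22 were higher, 6 lower and 15 not called, with a median of 0.80. Axonemal dyneins gave 2 higher and 5 lower calls of 11, and the 8 tested Rfx genes 1 higher and 3 lower. Of those, 2 higher and 2 lower dyneins and 2 lower Rfx genes stayed called when each array was left out in turn.

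**Figure D1:**
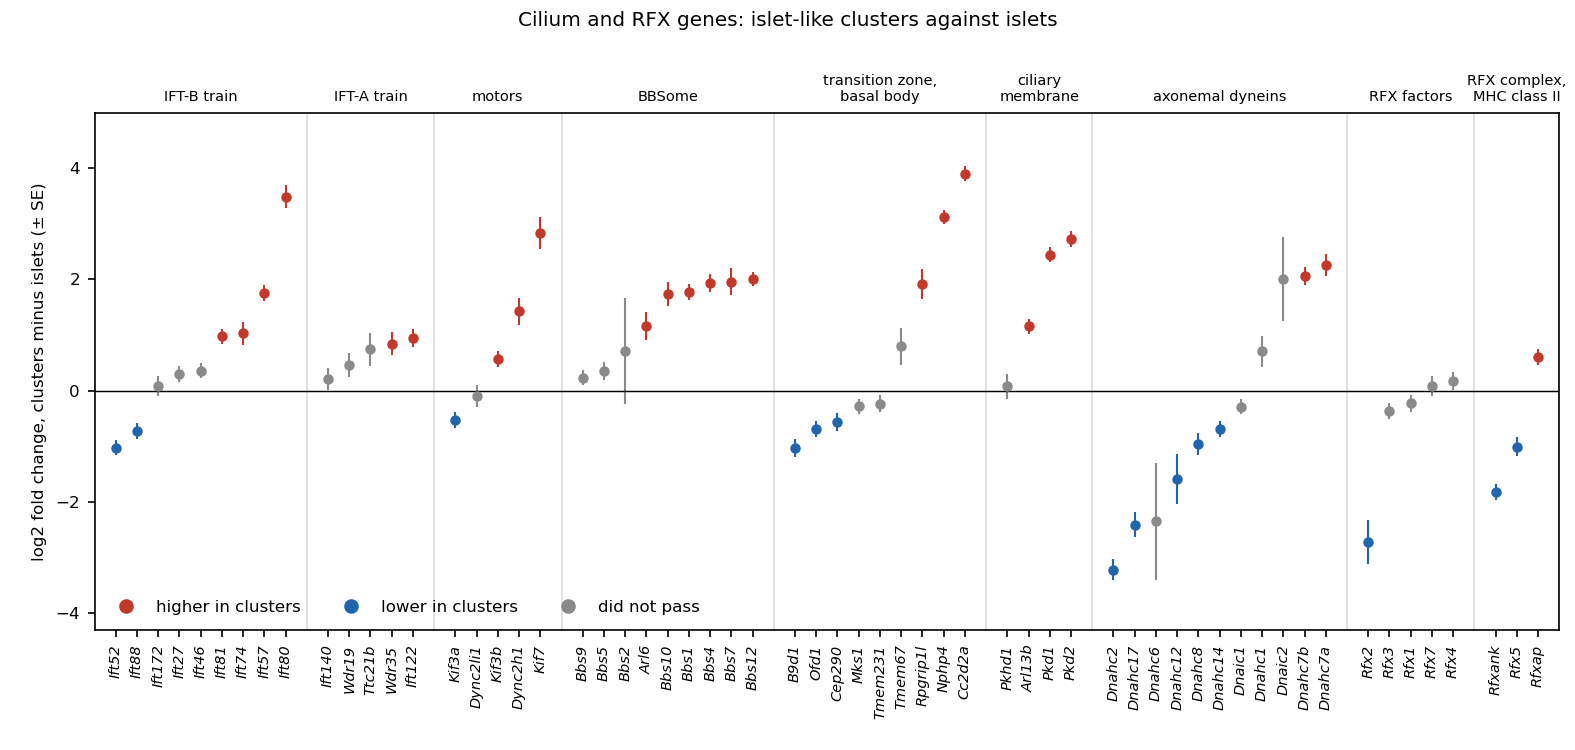
Fold changes of 60 of the 62 tested genes on the log2 scale, clusters minus islets, grouped by role and ordered within each role; bars are the SE of the fit over 2 arrays per group, red and blue mark genes called higher and lower, and grey genes that did not pass. The BBSome and ciliary membrane genes lie above 0, from 0.08 (Pkhd1) to 2.73 (Pkd2), and the axonemal dyneins lie on both sides of 0. Fitted values of genes undetected in a group, such as Dnahc2 and Rfx2, are drawn as fitted and are no measured size.

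The fit was repeated with 1 array left out at a time, the remaining array of that group being taken to vary like the other group. All 4 such fits kept 25 of the 39 calls (40.3% of the 62, against 36.3% of all genes tested), 19 of them higher in the clusters (30.6% against 18.1%) and 6 lower (9.68% against 18.2%). The higher genes included Ift57, Ift80, Ift81, Kif7, Dync2h1, Bbs1, Bbs4, Bbs7, Bbs10, Bbs12, Cc2d2a, Nphp4, Rpgrip1l, Arl13b, Pkd1, Pkd2, Dnahc7a and Dnahc7b. The lower genes were Ift52, B9d1, Dnahc2, Dnahc17, Rfx2 and Rfxank. Of these, Dnahc2, Dnahc17 and Rfx2 passed the detection filter through the islets alone, and among the higher genes Dnahc7b passed through the clusters alone. For these genes the other group's signals were near or below background in every fit, so leaving out an array is a weak check. Without cluster array 1 the counts were 20 higher and 8 lower, and without cluster array 2 they were 20 and 9.

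The X-box bears on these genes because it is the motif that RFX factors bind. RefSeq promoters (GRCm38.p6, 250 bases before to 50 after the gene's start, both strands searched) were found for 59 of the 71 genes, and 7 of them held an X-box, 11.9% against 2.82% of 27025 genes with a promoter in the table. The shorter motif GTTGCC, which is 1 arm of the X-box and can overlap it, was in 23 of the 59 promoters, 39% against 14.1%. Of the 7 genes with an X-box, Bbs1, Bbs4, Bbs7 and Ift57 were called higher in the clusters, Mks1, Dnaic1 and Dnaic2 were not called, and none was called lower. The share was 4 of 19 promoters of genes called higher, 0 of 12 of those called lower, 3 of 20 of those not called and 0 of 8 of those not tested. A match describes the letters and is no evidence that a factor is bound. The first matching stretch in each of the 7 promoters is printed whole, 5′ to 3′ on the gene's strand, to show how closely the matches resemble each other.
Bbs1: GTTGCCAAGGCGAC
Bbs4: GTCGCCCGGGAAAC
Bbs7: GTTGCCTTGGAAAC
Ift57: GTTGCCGTGGTGAC
Mks1: GTTGCCAGGGGAAC
Dnaic1: GTTGCTGGGTAAC
Dnaic2: GTTGCTAGGCAAC

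The match lay at positions 1 to 14 from the gene's start in Bbs1 and 23 to 36 in Bbs4, and before the start in the other 5 genes. The 250 bases before the start are shown for a called train gene, a called BBSome gene and a pair of genes that were not called, with X-box matches in capitals. Ift57 lies on the plus strand of chromosome 16 (chr16:49699044-49699293 for the bases shown), and its first match spans positions -87 to -74. It holds 3 matches counted per strand, because its second stretch in capitals matches on both strands at the same place. Bbs7 lies on the minus strand of chromosome 3 (chr3:36613390-36613639) with its match at -121 to -108. Mks1 (chr11:87852965-87853214) and Dnaic2 (chr11:114727169-114727418), both on the plus strand, have theirs at -24 to -11 and at -33 to -21.
Ift57: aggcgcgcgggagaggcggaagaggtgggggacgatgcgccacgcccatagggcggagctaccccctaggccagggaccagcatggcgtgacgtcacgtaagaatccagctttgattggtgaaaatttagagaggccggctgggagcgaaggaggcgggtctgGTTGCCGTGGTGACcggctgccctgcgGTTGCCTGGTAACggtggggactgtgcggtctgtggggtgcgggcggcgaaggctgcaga
Bbs7: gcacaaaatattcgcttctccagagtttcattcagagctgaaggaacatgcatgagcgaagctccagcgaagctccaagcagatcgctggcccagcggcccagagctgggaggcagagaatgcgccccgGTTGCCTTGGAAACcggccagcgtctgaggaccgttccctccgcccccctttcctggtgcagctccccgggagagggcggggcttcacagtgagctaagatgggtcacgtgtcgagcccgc
Mks1: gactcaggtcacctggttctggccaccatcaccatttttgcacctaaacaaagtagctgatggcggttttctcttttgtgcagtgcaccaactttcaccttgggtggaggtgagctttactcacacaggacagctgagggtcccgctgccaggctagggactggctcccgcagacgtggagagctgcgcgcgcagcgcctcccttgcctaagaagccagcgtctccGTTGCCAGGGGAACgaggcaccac
Dnaic2: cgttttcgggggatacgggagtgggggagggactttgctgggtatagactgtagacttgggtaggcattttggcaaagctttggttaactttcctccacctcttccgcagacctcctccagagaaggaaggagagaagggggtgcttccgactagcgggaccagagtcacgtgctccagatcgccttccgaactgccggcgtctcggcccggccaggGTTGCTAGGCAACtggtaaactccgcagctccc

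Subunits of the outward-moving IFT-B train did not move together. Of 9 tested, 4 were higher in the clusters, 2 lower and 3 not called, with a median of 0.36. Ift80, a subunit whose human gene is mutated in a skeletal ciliopathy, had signals of 1.73 and 1.67 in the clusters and -1.55 and -2.04 in the islets. Its groups lay far apart, and its fold change was 3.49 ± 0.21 (SE; adjusted p = 0.000532), or 11.2-fold, and 2.75 with normexp background correction, an alternative that adds an offset of 50 to every spot. Ift57, whose promoter is printed above, measured 3.90 and 4.03 in the clusters against 2.28 and 2.14 in the islets, a rise of 1.76 ± 0.14 (adjusted p = 0.00116). Both cluster arrays were above both islet arrays for these genes. Ift81 and Ift74 form the tubulin-carrying pair of the train. Ift81 rose by 0.98 ± 0.13 (1.61 and 1.58 against 0.66 and 0.58) and Ift74 by 1.03 ± 0.21 (2.38 and 2.34 against 1.56 and 1.09). The Ift74 call was lost without cluster array 1 (adjusted p = 0.0643) or 2 (0.0571), and a second Ift74 probe gave 0.01.

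Ift52 and Ift88, core subunits of the train, were lower in the clusters. Ift52 was at 2.06 and 1.95 in the clusters and at 3.03 and 3.01 in the islets, and fell by 1.02 ± 0.13 (SE; adjusted p = 0.0043). Ift88, the subunit whose loss in mice removes cilia, was at 1.89 and 1.82 against 2.69 and 2.47, and fell by 0.73 ± 0.15 (adjusted p = 0.0159). In both genes each islet array exceeded each cluster array. The Ift88 call was lost without cluster array 1 (adjusted p = 0.0764), without cluster array 2 (0.0934) and with each array scaled by its median (0.0658). Ift172 overlapped between groups, at 0.57 and 0.57 against 0.67 and 0.31, a difference of 0.08 ± 0.18. Ift27 (0.30 ± 0.15) and Ift46 (0.36 ± 0.14) were not called, and a second, dimmer Ift46 probe gave 2.22 ± 0.18. Kept in spite of its flag, the Ift20 probe read 3.14 and 5.07 in the clusters and 4.37 and 4.53 in the islets. The Ift43 probe, treated likewise, read 1.52 and 2.86 against 2.86 and 2.76. For both genes the flagged spot on cluster array 1 was the lowest of the 4.

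In the IFT-A train, which returns cargo to the base, 2 of 5 tested subunits were called, both higher, and the median was 0.74. Ift122 read 3.86 and 3.73 in the clusters and 2.98 and 2.70 in the islets, 0.95 ± 0.16 higher (SE; adjusted p = 0.0097). Wdr35 read 1.95 and 1.81 against 1.27 and 0.80, 0.84 ± 0.21 higher (adjusted p = 0.0272). Neither call held in every fit: without cluster array 1 the adjusted p was 0.0593 for Ift122 and 0.114 for Wdr35, and without cluster array 2 that of Wdr35 was 0.0793, and with no filter on dim probes 0.0568. Ttc21b (0.74 ± 0.30), Wdr19 (0.46 ± 0.21) and Ift140 (0.21 ± 0.20) were not called.

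**Figure D2:**
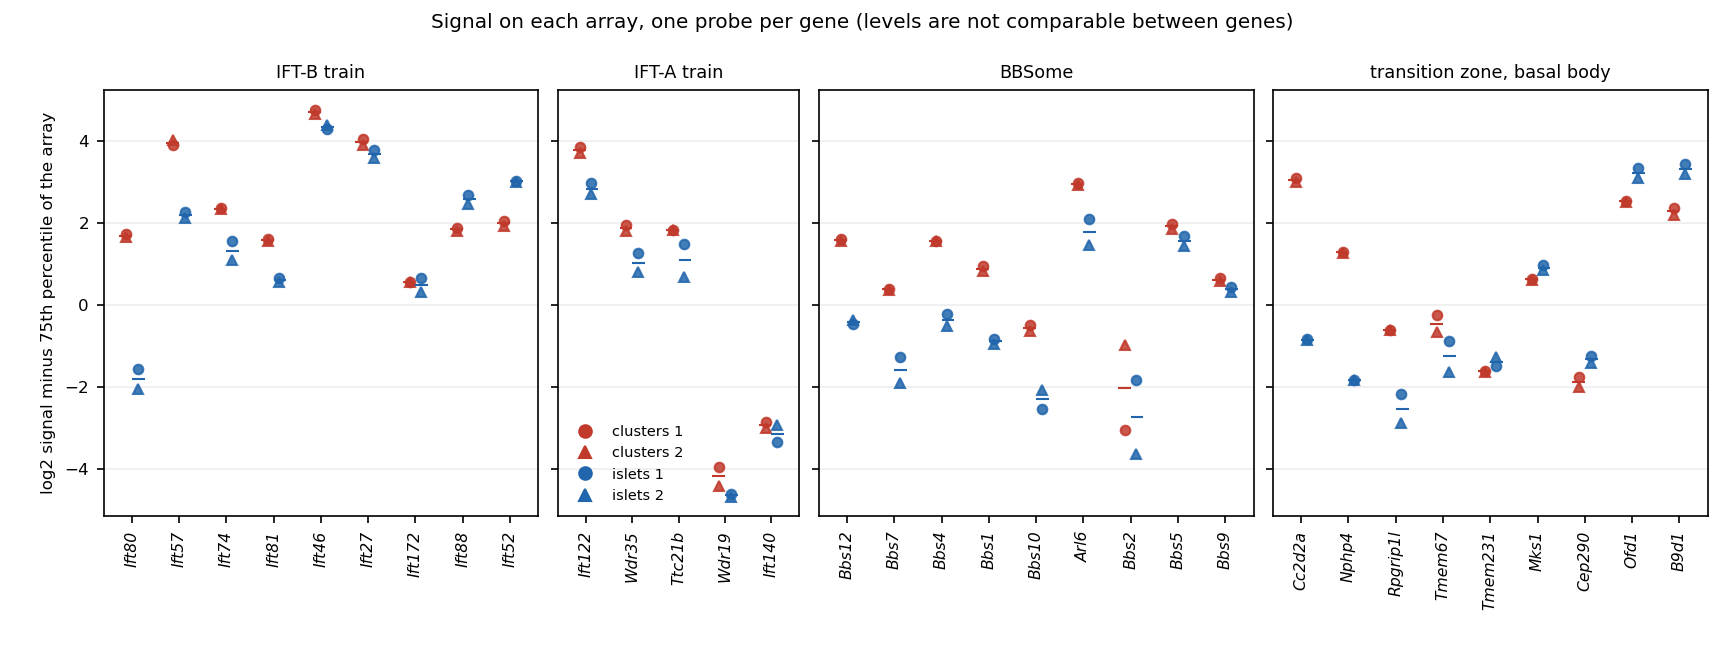
Signal of each gene on each of the 4 arrays, as log2 signal minus the array's 75th percentile, for IFT trains, the BBSome and the transition zone; red points are clusters, blue points islets, circles replicate 1, triangles replicate 2, and dashes the group means. In Ift80, Cc2d2a and Nphp4 the red and blue points lie over 3 log2 units apart, while the points of Bbs2 are spread within each colour.

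Among the motors, dynein-2's heavy chain rose while the kinesin-2 subunits gave no single answer. Dync2h1, the motor of return transport, was at 1.27 and 1.41 in the clusters and 0.20 and -0.38 in the islets, a rise of 1.43 ± 0.24 (SE; adjusted p = 0.00876). Kif7, a kinesin at the ciliary tip that acts in Hedgehog signalling, was at -1.13 and -1.35 against -4.43 and -3.71, a rise of 2.83 ± 0.29 (adjusted p = 0.00217). Both islet values of Kif7 were near the detection limit, and with normexp its fold change was 1.12. A second Kif7 probe was not well above background on any array. The light intermediate chain Dync2li1 was not called (-0.09 ± 0.19).

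Kif3a and Kif3b form the kinesin-2 motor that drives trains outward. The brighter Kif3a probe (mm9 chr11:53397887-53397946) was at 2.74 and 2.60 in the clusters and 3.29 and 3.11 in the islets, lower by the fit (-0.53 ± 0.15 SE; adjusted p = 0.0402). The other probe (mm9 chr11:53415270-53415329) was at 0.46 and 0.87 against -0.84 and -1.32, which is higher by 1.75 ± 0.26 (adjusted p = 0.00657 over the probes tested). The groups did not overlap on either probe, and the probes disagreed in direction. The mean of both probes gave 0.61 (adjusted p = 0.0418), so no direction is given for Kif3a, which counts among the 14 lower genes by its brighter probe. For Kif3b the dimmer probe gave -0.56 ± 0.34 and was not called, and the mean of both probes was 0.005. On its brighter probe Kif3b was called higher by 0.57 ± 0.14 (0.09 and -0.04 against -0.47 and -0.62, adjusted p = 0.0281). Both calls were fragile: the adjusted p without cluster array 1 was 0.123 for Kif3a and 0.16 for Kif3b, without cluster array 2 it was 0.206 and 0.105, without islet array 1 it was 0.089 for Kif3a, and without islet array 2 it was 0.065 for Kif3b. With no filter on dim probes the values were 0.0902 and 0.0681, median scaling gave 0.179 for Kif3a, and the mean of its probes gave 0.983 for Kif3b.

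Every called gene of the BBSome and its regulators was higher in the clusters. Of 9 genes tested 6 were called higher in the clusters, none was called lower, and the median was 1.74. Bbs12, a chaperonin-like protein needed to assemble the complex, read 1.62 and 1.56 in the clusters and -0.46 and -0.37 in the islets, a rise of 2.01 ± 0.13 (SE; adjusted p = 0.000673). Bbs7, a subunit with the X-box printed above, read 0.39 and 0.38 against -1.26 and -1.89 and rose by 1.96 ± 0.25 (adjusted p = 0.00402). Bbs4, another subunit with an X-box, read 1.58 and 1.57 against -0.20 and -0.52 and rose by 1.93 ± 0.17 (adjusted p = 0.00135). In each of these genes the cluster arrays nearly coincided and both lay above the islets.

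Bbs1, the subunit contacted by the GTPase Arl6, and the assembly factor Bbs10 rose by similar amounts. Bbs1 read 0.96 and 0.82 against -0.83 and -0.94 (1.77 ± 0.14 SE), although its second, dimmer probe gave 0.01 and the mean of the probes 0.89. Bbs10 read -0.49 and -0.63 against -2.53 and -2.06 (1.74 ± 0.21), and 1.08 with normexp. Arl6, which brings the BBSome to membranes, read 2.98 and 2.93 against 2.11 and 1.48 (1.16 ± 0.25). Its call was lost without cluster array 1 (adjusted p = 0.0693) or 2 (0.0621), though a second probe gave 1.43. Bbs2 could not be resolved, with signals of -3.05 and -0.98 in the clusters and -1.83 and -3.64 in the islets that overlapped between groups. Bbs5 (0.36 ± 0.16) and Bbs9 (0.23 ± 0.14) were not called, and a second Bbs5 probe was called higher at 0.66.

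The transition zone and basal body held the largest rise among all 62 genes beside several falls, with 4 of 11 genes higher, 3 lower and a median of 0.10 that turned to -0.05 when arrays were scaled over probes detected on all of them. Cc2d2a, a scaffold of the zone's Meckel syndrome protein module (probe at mm9 chr5:44094526-44094585), was at 3.11 and 3.00 in the clusters and -0.83 and -0.86 in the islets. It rose by 3.90 ± 0.13 (SE; adjusted p = 0.000146), or 14.9-fold, and a second probe gave 4.04. Nphp4, of the nephrocystin module, was at 1.31 and 1.28 against -1.82 and -1.84 and rose by 3.13 ± 0.13 (adjusted p = 0.000209), by 2.42 with normexp and by 2.49 as the mean of its probes. The replicates of both genes differed by far less than the groups did. Of the other Nphp4 probes 1, detected on 1 islet array, gave 4.24 and 1, from an Ensembl transcript and near the detection limit, gave 0.12.

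Rpgrip1l, a scaffold protein of the zone, was at -0.59 and -0.60 in the clusters and -2.18 and -2.87 in the islets, a rise of 1.93 ± 0.27 (SE; adjusted p = 0.00519) that was 1.13 with normexp. Both cluster values lay above both islet values, which were the more widely spread.

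The falls were smaller. B9d1, a membrane-associated protein of the same module as Cc2d2a, was at 2.38 and 2.21 in the clusters and 3.44 and 3.20 in the islets and fell by 1.03 ± 0.16 (SE; adjusted p = 0.0074). Ofd1, a protein of the distal centriole, was at 2.54 and 2.53 against 3.34 and 3.11 and fell by 0.69 ± 0.15 (adjusted p = 0.0188). Cep290, which links microtubules to the ciliary membrane, was at -1.76 and -2.00 against -1.24 and -1.41 and fell by 0.56 ± 0.16 (adjusted p = 0.0422). Each islet array exceeded each cluster array in all 3 genes. The Ofd1 call was lost without cluster array 1 (adjusted p = 0.0953) or 2 (0.0985) and with median scaling (0.0842). The Cep290 call was lost without cluster array 1 (0.0918), cluster array 2 (0.216) or islet array 1 (0.0908), with median scaling (0.158), with quantile normalization (0.097) and with no filter on dim probes (0.0908). Tmem67 (0.80 ± 0.33), Tmem231 (-0.23 ± 0.15) and Mks1 (-0.28 ± 0.13) were not called. Mks1 is 1 of the genes whose X-box is printed above.

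At the ciliary membrane both polycystins were higher in the clusters. Pkd2, the channel, read 5.16 and 5.09 in the clusters and 2.48 and 2.30 in the islets and rose by 2.73 ± 0.14 (SE; adjusted p = 0.00038), or 6.65-fold. Pkd1, its large receptor-like partner, read 3.29 and 3.20 against 0.75 and 0.84 and rose by 2.45 ± 0.14 (adjusted p = 0.000429), or 5.46-fold. Arl13b, a GTPase that marks the ciliary membrane, read 1.31 and 1.20 against 0.12 and 0.08 and rose by 1.16 ± 0.13 (adjusted p = 0.0031). In all 3 genes both cluster arrays lay above both islet arrays, and the arrays of a group lay close together. Pkhd1, the fibrocystin gene of duct and kidney epithelia, overlapped on its brighter probe, at -1.47 and -1.83 against -1.90 and -1.54. Its second probe, designed on an Ensembl transcript, was not well above background in the clusters (-6.22 and -6.84) and was so in the islets (-4.13 and -4.17), close to the detection limit, so no size is given for it.

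Many of the axonemal dyneins, the motors of motile cilia and sperm tails, were near or below the detection limit in at least 1 group. Of 16 genes 11 were tested, 5 were well above background on all 4 arrays, and 2 were called higher, 5 lower and 4 not. Where both arrays of a group failed to detect every probe of a gene, its fold is written as "at least". The fold is taken against the higher of the array's lowest well-detected signal and the probe's own signal. This limit holds only for the processed signal and that choice of lowest signal, and it carries no sampling error. The normexp values printed for such genes are smaller than the limit. Dnahc2, an inner-arm heavy chain now named Dnah2, was at -6.82 and -7.08 in the clusters, not well above background, and at -3.57 and -3.90 in the islets. It was at least 1.92-fold lower in the clusters, with a fold change of -0.74 under normexp. The fit of its signals as measured gave an adjusted p of 0.000498. With dim signals raised to the array's lowest well-detected signal the adjusted p was 0.0138. Dnahc17 was at -4.78 and -4.41 in the clusters, where 1 of the 2 arrays measured it, and at -2.41 and -1.98 in the islets, and fell by 2.41 ± 0.23 (SE; adjusted p = 0.00185), or by 0.91 with normexp. Dnahc12 was at least 1.87-fold lower (-4.73 and -5.97 against -3.67 and -3.87; -0.46 with normexp), a call lost without islet array 1 (adjusted p = 0.0687) or 2 (0.0533), with median scaling (0.0632), with quantile normalization (0.0876) and with no filter (0.0701). Each islet array exceeded each cluster array in these genes. The other probes of Dnahc17 and Dnahc12 were not well above background on any array.

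The probes used for Dnahc8 and Dnahc14 were brighter, and these genes changed less. The other Dnahc8 probes were not well above background on any array. Dnahc8, an outer-arm heavy chain of sperm, read -0.75 and -1.11 in the clusters and -0.10 and 0.15 in the islets (-0.95 ± 0.20 SE), a call lost without cluster array 2 (adjusted p = 0.0762). Dnahc14 read -1.72 and -1.67 against -1.10 and -0.92 (-0.68 ± 0.14), a call lost without cluster array 1 (0.099) or 2 (0.0854) and as the mean of its probes (0.0907). Dnahc7a and Dnahc7b, near-identical copies whose probes may share transcripts and whose separate values are therefore uncertain, went the other way. Dnahc7a read -1.65 and -2.08 against -4.17 and -4.07 (2.26 ± 0.20, and 0.81 with normexp), while its 3 other probes were not well above background. Dnahc7b read -3.83 and -3.76 against -5.71 and -6.00, at least 1.82-fold higher in the clusters, and 0.12 (adjusted p = 0.482) with normexp. Its other probes were not well above background on any array. Dnahc6 (-2.35 ± 1.05), Dnaic2 (2.01 ± 0.75), Dnahc1 (0.71 ± 0.28) and Dnaic1 (-0.29 ± 0.13) were not called. The spread within groups was wide in Dnahc6, at -6.82 and -3.79 in the clusters, and in Dnaic2, at -4.20 and -6.36 in the islets. The outer-arm heavy chains of airway cilia, Dnahc5, Dnahc9 and Dnahc11, were not well above background anywhere.

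**Figure D3:**
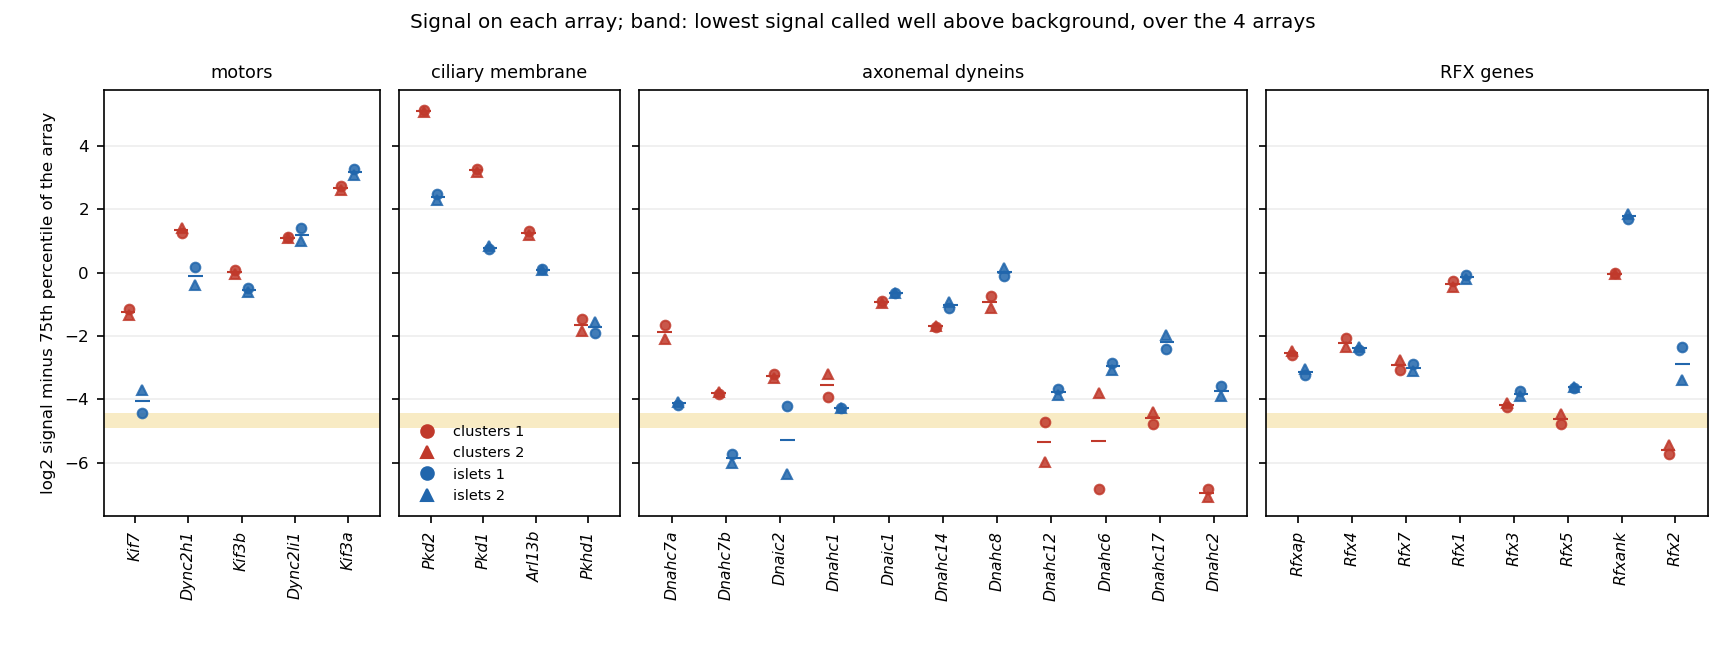
Signal of each gene on each array, in log2 units relative to the array's 75th percentile, for the motors, the ciliary membrane, the axonemal dyneins and the RFX genes; colours and symbols separate clusters from islets and replicates 1 and 2, dashes are group means, and the band spans the lowest well-detected signals of the 4 arrays (-4.90 to -4.42). Pkd1 and Pkd2 lie well above the band on every array, whereas Dnahc2 and Rfx2 lie below it in the clusters only.

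Of the RFX factors of ciliated and endocrine cells, Rfx2 alone was called. Rfx2, which acts in motile cilia and in sperm formation, was at -5.74 and -5.45 in the clusters, not well above background, and at -2.35 and -3.39 in the islets. It was at least 3.49-fold lower in the clusters, with a fold change of -0.83 under normexp. The fit of its signals as measured gave an adjusted p of 0.00569. With dim signals raised to the array's lowest well-detected signal the adjusted p was 0.01185. Rfx3, which acts in nodal and islet cilia, was dim in both groups, at -4.24 and -4.12 against -3.74 and -3.90 (-0.36 ± 0.14 SE; adjusted p = 0.0912). Rfx1 was at -0.27 and -0.45 against -0.06 and -0.20 (-0.23 ± 0.15; adjusted p = 0.252). For Rfx3 and Rfx1 the groups did not overlap but the differences did not pass. Rfx4, a factor of the developing brain, was at -2.07 and -2.35 against -2.44 and -2.33 (0.17 ± 0.16; adjusted p = 0.405). Rfx7 was at -3.08 and -2.75 against -2.90 and -3.10 (0.08 ± 0.18; adjusted p = 0.722). Both overlapped between groups. The probe of Rfx6, the factor that directs endocrine cell formation, read -6.82 and -7.10 in the clusters and -4.90 and -6.65 in the islets, and that of Rfx8 -6.82 and -7.18 against -4.91 and -6.02. None of these readings was well above background, the islets included, so neither gene could be compared. This stands beside the islets' endocrine markers, all 11 of which were well above background there.

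Rfx5, Rfxap and Rfxank encode the complex that binds promoters of MHC class II genes, and they did not move together. Rfxank was at -0.02 and -0.05 in the clusters and 1.71 and 1.87 in the islets and fell by 1.82 ± 0.14 (SE; adjusted p = 0.000968), or 3.53-fold. Rfx5 was at -4.79 and -4.47 in the clusters, where 1 of the 2 arrays measured it, and at -3.63 and -3.61 in the islets. It fell by 1.01 ± 0.17 (adjusted p = 0.0089). Its second probe was not well above background in the clusters. Rfxap was at -2.59 and -2.47 against -3.23 and -3.04 and was higher by 0.61 ± 0.15 (adjusted p = 0.026). The groups of all 3 genes were apart. The Rfx5 call was lost without cluster array 1 (adjusted p = 0.0504), and the Rfxap call without cluster array 1 (0.0973), cluster array 2 (0.147) or islet array 1 (0.0552), with scaling on commonly detected probes (0.0615), with no filter (0.0627), with a variance trend (0.0603) and with normexp (0.505). Of 7 MHC class II genes 2 were called higher (H2-Ab1 and H2-DMa), 3 lower (H2-Aa, H2-DMb1 and H2-Eb1) and 2 not (Cd74 and Ciita). H2-Ab1 rose by 4.50 ± 0.72, and by 3.47 without islet array 1, 5.54 without islet array 2 and 3.61 with normexp, and H2-Eb1 was at least 10.4-fold lower (-1.76 with normexp). Macrophage markers, which come from a cell type rich in MHC class II, were lower in the clusters in 4 of 6 genes, and their part here was not tested.

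Genes reported downstream of Rfx6 or Rfx3 in the islet were mostly lower in the clusters, 5 of 8 against 2 higher and 1 not called. Of all genes tested, 30.7% were lower and 27.2% higher. The 2 higher were Cacna1d and Cacna1c, and Cacna1c was at -0.025 with normexp. Abcc8, the sulphonylurea receptor of the beta cell's potassium channel, read -0.85 and -1.18 in the clusters and 2.75 and 2.48 in the islets, a fall of 3.63 ± 0.20 (SE). Slc2a2, the beta cell's glucose transporter, was at least 8.23-fold lower. The calcium channel gene Cacna1d rose by 2.61 ± 0.29, from -3.99 and -4.74 in the islets to -1.79 and -1.71 in the clusters, but by 0.86 with normexp and 1.39 as the mean of its probes, and the probe used when detection on all 4 arrays was required gave 0.16 (adjusted p = 0.72). This list overlaps the endocrine markers in Ins1, Ins2 and Slc2a2, and those markers were lower in 10 of 11 genes; their part here was not tested.

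Probes of 1 gene often gave different sizes. Of 114 probes 84 were tested, of which 36 were called higher and 16 lower. In 20 genes several probes were tested, and in 1 of them, Kif3a, they were called in opposite directions, as were those of 525 of 6996 genes of the whole array. The gene's value here is that of its brightest probe.

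**Figure D4:**
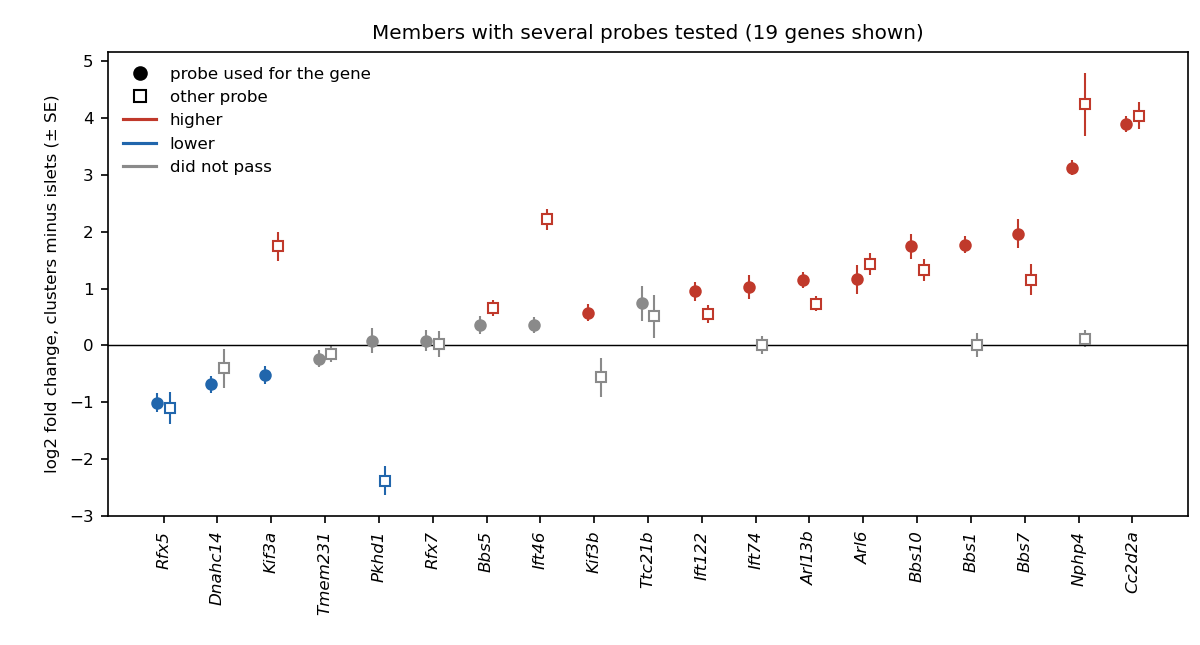
Fold change of every tested probe of 19 of the 20 genes with several probes, on the log2 scale with the SE of the fit; filled circles are the probe that stands for the gene, open squares its other probes, and colours mark the call. The probes of Cc2d2a nearly coincide at 3.90 and 4.04, those of Kif3a lie on opposite sides of 0, and Bbs1, Ift74 and Nphp4 each have a probe near 0; the second probes of Pkhd1 and Rfx5 were undetected in the clusters, so their fitted values are no measured size.

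The wider cilium gene lists, whose names the members' rule does not match, showed 43 of 109 tested genes higher and 26 lower, with a median of 0.18 against -0.15 for all genes. That made 63.3% called, against 57.9% of all genes tested. Over all genes 27.2% were higher and 30.7% lower, and the counts of each list below stand beside these shares. The list of other IFT-B names gave 4 higher and 1 lower of 10. Tnpo1 is an import receptor that carries proteins into the cilium and no train subunit, but it was counted in that list. It rose by 1.48 ± 0.17 (SE), and Rabl5, the small GTPase subunit Ift22, fell by 1.24 ± 0.13. Other motor subunits gave 3 higher and 1 lower of 6, led by Kifap3, the adaptor of kinesin-2, with 1.93 ± 0.13. Kif3c, a kinesin-2 subunit of neurons, fell by 1.98 ± 0.47, by 2.61 without islet array 1 and by 1.35 without islet array 2, and its call was lost without cluster array 2 (adjusted p = 0.0778) and with a variance trend (0.0782).

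The list of other BBSome names gave 5 higher and 2 lower of 9 and a median of 1.18. The list is not limited to BBSome subunits: the 2 lower genes, Rab3ip and Rab8a, are an exchange factor and its GTPase. Trim32 and Mkks, both higher, are not subunits either. Trim32, a ubiquitin ligase of the Bardet-Biedl gene set, rose by 2.01 ± 0.14 (SE) and Mkks, a chaperonin-like assembly factor, by 1.66 ± 0.18. Rab3ip, the exchange factor that activates Rab8 at the cilium, fell by 2.14 ± 0.15, and Rab8a by 0.68 ± 0.16 in a call lost without cluster array 1 (adjusted p = 0.0985) or 2 (0.114), with median scaling (0.0981) and with no filter (0.0537). Other transition zone genes gave 7 higher and 5 lower of 17: Ahi1 rose by 2.78 ± 0.20 (0.87 with normexp) and B9d2 by 2.63 ± 0.19, while the tectonics Tctn3 and Tctn1 fell by 1.83 ± 0.15 and 1.39 ± 0.20. As among the members, genes of 1 protein module of the transition zone lay on both sides.

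Genes of ciliary signalling and membrane traffic gave 8 higher and 3 lower of 13 with a median of 1.02. Evc2, which works with Smoothened at the base of the cilium, read 4.88 and 4.79 in the clusters and 0.58 and 0.28 in the islets, a rise of 4.40 ± 0.17 (SE), or 3.68 as the mean of its probes. Adcy3, the adenylyl cyclase that marks cilia of neurons and islet cells, rose by 4.36 ± 0.41 from values near the detection limit in the islets, and by 1.65 with normexp. The ciliary receptors Gpr161 and Sstr3 were lower, by -1.31 ± 0.24 and -1.19 ± 0.25 (-0.57 and -0.59 with normexp), and the Sstr3 call was lost without cluster array 1 (adjusted p = 0.0585) or 2 (0.0596). Centriole genes gave 5 higher and 4 lower of 18. Ttbk2, the kinase that starts cilium growth, rose by 2.83 ± 0.22, and Odf2, a protein of the mother centriole's appendages, fell by 2.15 ± 0.13, or by 0.86 as a mean of its probes. Of 7 disassembly genes Nedd9 alone was called, falling by 0.97 ± 0.14.

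Genes of motile cilia gave 11 higher and 9 lower of 29 tested. Foxj1, the factor that switches on motile cilia, read -6.82 and -5.39 in the clusters, not well above background, and -2.08 and -2.12 in the islets. It was at least 5.96-fold lower in the clusters. The fit of its signals as measured gave an adjusted p of 0.00395. With dim signals raised to the array's lowest well-detected signal the adjusted p was 0.000294. With normexp its fold change was -1.23. Rsph1, a radial spoke protein, was at least 43.2-fold lower (a fold change of -3.27 with normexp and of -4.86 as the mean of its probes) and Trp73, a regulator of multiciliated cells, fell by 4.05 ± 0.13 (SE). Against these, Ccno, which acts in centriole amplification, read 1.76 and 1.66 in the clusters and -4.45 and -3.65 in the islets, a rise of 5.76 ± 0.30 (3.64 with normexp), and Spag16, of the central apparatus, was at least 11.4-fold higher (1.64 with normexp). The multiciliated marker list as a whole had 1 of 7 tested genes higher and 4 lower. Its summed level was 3.46 to 3.65 in the clusters and 2.20 to 2.69 in the islets, with Foxj1, Rsph1 and Spag6 not well above background in the clusters. The cluster sums came almost wholly from Ccno, the 1 gene of the list called higher.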

How the data were processed

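Each of the 4 arrays measured polyadenylated RNA, since per the labels 500 ng of total RNA was copied from an oligo-dT primer and labelled with Cy3. The values deposited per spot are linear intensities from Agilent Feature Extraction 11.5.1.1 per the file headers, background-subtracted and detrended within each array, with probe positions on mm9. The flags for detection and uniformity were used as deposited. The authors' deposited table holds log2 values with no centring per gene (r of at least 0.99995 with the same array's scanner values, column medians -3.61, -3.70, -3.50 and -3.37) and served as an alternative.

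Log2 of the processed signal was reduced by each array's 75th percentile over probes with a value on all 4 arrays. Control spots and non-uniform spots (510, 2, 26 and 4 per array) were removed before averaging each probe's spots; no spot was saturated. A probe was kept if both arrays of either group detected it well above background (34971 probes), and the brightest such probe stood for its gene. The comparison used limma's lmFit and eBayes (version 3.58.1, R 4.3.3), 2-sided and without covariates, with 4.28 degrees of freedom in total, after a test on simulated data. The number of arrays limits the precision. All arrays share 1 slide.

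The members, the roles, the wider lists and the markers were chosen with earlier results of these data known. Values per array are given for up to 3 called members per direction and role with the largest changes, every Rfx gene, the polycystin genes, Pkhd1, Ift88, Ift172, Kif3a, Dync2h1, Arl13b and Cep290, and outside the members for up to 2 called genes per direction of each list and Foxj1. A few genes enter the counts and medians but are not reported here by name. Other genes were named after their values were seen. Accessions of 67 of the 71 genes matched RefSeq (GRCm38.p6), which gives 10 another symbol; axonemal dyneins are named there Dnah in place of Dnahc. Alternatives covered the background correction, scaling, filters, averaging of probes, a floor, the variance model, the replicate block, the authors' values and each array left out. Scaling over each array's own probes and leaving out population outlier spots were added after the data were seen.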

Additional observations from a re-analysis of the deposited data

How the results depend on the processing

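Higher calls numbered 25 and were 20 to 28 over the alternatives, which tested 62 members except with no filter (69), with probes detected on all arrays (52) and with non-uniform spots kept (64). Lower calls numbered 14 and were 9 with median scaling, 9 with probes detected on all arrays, 17 when arrays were scaled on commonly detected probes, 15 with normexp and with the floor, and 8 to 13 when an array was left out. The median fold change, 0.41, was 0.14 with normexp, 0.63 with median scaling, 0.27 when arrays were scaled on commonly detected probes, 0.50 with quantile normalization, 0.23 without a filter, 0.66 with probes detected on all arrays, 0.51 with the mean of a gene's probes, and 0.30 to 0.48 when an array was left out. The median of all genes moved with the scaling, from -0.15 to 0.07, -0.29 and -0.05, with median scaling, scaling on commonly detected probes and quantile normalization. The distance between the medians, which a scaling constant cannot change, was 0.56, and it was 0.31 with normexp, 0.36 without a filter and 0.77 with probes detected on all arrays. Direction reversed for Kif3a (0.61) and Pkhd1 (-1.15, which includes a probe undetected in the clusters) as means of their probes and for Cacna1c (1.66, and -0.025 with normexp, adjusted p = 0.891); the cause was not tested. Genes called over the whole array numbered 10016 to 15006 when an array was left out, against 14252. The authors' values kept 39 of 39 member calls, normexp kept 37 and moved 12 fold changes by over 1.5 times, and leaving out cluster array 1 kept 27. Samples of the same replicate number did not deviate together (r = -0.02 over all genes); with the replicate block 12080 genes of the whole array, and 24 members higher and 12 lower, were called, 4 of 39 calls being lost (Cep290, Kif3a, Kif3b and Rfxap). With the percentile taken over each array's own probes, an alternative chosen after seeing the data, Cep290 (adjusted p = 0.103) and Kif3a (0.115) were not called, and Kif3b (0.05002) narrowly missed. Dim probes are limited by signal over background: 52 of the 62 genes were well above it on all 4 arrays.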
